A study of Mus musculus with 4 samples.

Results

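Trem2 and 9 further genes of the disease-associated phagocyte programme were followed in immune cells of the inflamed mouse spinal cord. They were chosen by name: Trem2, Tyrobp, Cst7, Clec7a, Itgax, Spp1, Gpnmb, Axl, Fabp5 and Lgals3. Of the 10 genes, 9 had a row among the 32285 genes of the count tables, and Clec7a was not analysed here. They were read in 1943 microglia-like cells, 7434 macrophage-like cells and 675 conventional dendritic cell-like cells of 26853 cells in all. All mice were C57BL/6 with experimental autoimmune encephalomyelitis (EAE), in which immunization against myelin antigens drives immune cells into the spinal cord. Both groups received an oligonucleotide inside the skull at day 9 after immunization, either a control oligonucleotide (Ctrl MO, the control group) or Reg1-MOs (the Reg1-MO group), and CD45+ cells were sorted from the spinal cord at day 16. The labels spell out neither abbreviation, and they give neither the age or sex of the mice nor how many were pooled per library. The text below takes MO to stand for morpholino, an antisense oligonucleotide, and Reg1 for Regnase-1, an RNase that degrades inflammatory messenger RNAs. Each group had 2 droplet libraries, called control 1, control 2, Reg1-MO 1 and Reg1-MO 2. Nothing in the labels says that the libraries of a group came from separate animals, so p-values measure the spread between these libraries only.

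TREM2 is a surface receptor of microglia and macrophages that binds lipids and lipoproteins such as apolipoprotein E, and it signals through the adaptor DAP12, the product of Tyrobp. Around myelin debris and in neurodegeneration, microglia lower their resting genes and raise a shared set of genes for phagocytosis, lysosomes and lipid handling, the later part of which depends on Trem2. The other genes followed here belong to that set. Axl is a receptor tyrosine kinase for apoptotic cells, and Itgax encodes the integrin subunit CD11c. Spp1 encodes the secreted protein osteopontin, and Lgals3 encodes the carbohydrate-binding protein galectin-3. Gpnmb encodes a lysosome-associated glycoprotein, Cst7 encodes cystatin F, an inhibitor of lysosomal cathepsins, and Fabp5 encodes a fatty acid binding protein.

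The libraries held between 5256 and 9103 barcodes and between 75472324 and 174552218 UMIs (unique molecular identifiers, each standing for 1 captured RNA). Pairs of libraries shared 10 to 78 cell barcodes, at most 0.945% of the smaller library. Clusters were formed without the 10 genes and named from marker genes. The microglia-like class (clusters 20 and 24) held 198, 500, 396 and 849 cells in control 1, control 2, Reg1-MO 1 and Reg1-MO 2, in that order, which is kept for all values given by library below. All 12 microglial markers were detected in every library's microglia-like cells, at a summed level of 8973, 7759, 11100 and 14340 CPM (UMI counts scaled to the same total in every class and library). The macrophage-like class joined 4 clusters, called here by leading genes: the Vcan cluster (8), led by Vcan and F13a1, the Ms4a4c cluster (1), led by Ms4a4c and Cxcl10, the Nos2 cluster (12), led by Slc7a2, Nos2 and Cxcl9, and the Arg1/Apoe cluster (11), led by Saa3, Arg1 and Apoe. A further 1968 cells in 3 clusters carried microglial and monocyte markers together, by thresholds set after seeing the data, and were kept apart without a name; they made up 6.23%, 5.26%, 11.6% and 4.66% of the libraries' cells. In the largest of these, cluster 7, both kinds of marker were found in 59.1% of cells at equal depth, against 3.49% in cluster 20, and its cells held a median of 58680 UMIs against 15265. Another of these, cluster 26, took 272 of its 297 cells from control 2, so control 2 stands apart among cells with microglial markers, and fold changes that it moved most are also given without it. Cluster 24 (168 cells) had no cell from control 2. Zc3h12a, which encodes Regnase-1, was at 75.4, 149, 71.5 and 83.5 CPM in microglia-like cells, where the groups overlapped. A morpholino blocks translation or splicing and need not lower the transcript.

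All 9 measured genes are protein-coding in the GENCODE M21 annotation of mouse build GRCm38. Trem2 lies at chr17:48346401-48354147, Tyrobp at chr7:30413760-30417585, Cst7 at chr2:150570415-150578944, Itgax at chr7:128129547-128150657 and Spp1 at chr5:104435118-104441050. Gpnmb lies at chr6:49036546-49070929, Axl on the minus strand at chr7:25757273-25788705, Fabp5 at chr3:10012548-10016607 and Lgals3 at chr14:47367751-47386160. RefSeq promoter windows (GRCm38.p6, from 250 bases before to 50 bases after a start site) were matched by symbol for 7 of the 9 genes, in 8 windows. These were searched on both strands for TGANTCA, the AP-1 motif, and for 3 other motifs: CACGTG and CATGTG, bound by the MiT/TFE family of lysosomal regulators, and GAGGAA, the core bound by the myeloid factor PU.1. Of the 7 genes, 4 (Trem2, Cst7, Itgax and Gpnmb) had 1 TGANTCA match each, against 7.81% of all 32851 mouse promoter windows of the same length. GAGGAA was found for 3 of the 7 (Trem2, Spp1 and Axl), against 28.3% of all windows. No window held CACGTG (7.15% of all windows) or CATGTG (14.2%), which says only that these letters are not in these windows. The 4 windows with TGANTCA are shown because this was the motif that most of the 7 genes had in common. Capitals mark TGANTCA or GAGGAA on either strand, and no matches overlap in them. A match is a string of letters, not a measured binding site.
Trem2 promoter, chr17:48346151-48346450, plus strand: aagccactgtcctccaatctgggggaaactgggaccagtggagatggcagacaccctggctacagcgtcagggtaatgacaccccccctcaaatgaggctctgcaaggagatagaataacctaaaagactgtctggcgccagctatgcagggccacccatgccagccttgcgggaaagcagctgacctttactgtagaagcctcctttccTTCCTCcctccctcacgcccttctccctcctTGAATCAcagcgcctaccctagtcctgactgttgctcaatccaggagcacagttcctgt
Cst7 promoter, chr2:150570165-150570464, plus strand: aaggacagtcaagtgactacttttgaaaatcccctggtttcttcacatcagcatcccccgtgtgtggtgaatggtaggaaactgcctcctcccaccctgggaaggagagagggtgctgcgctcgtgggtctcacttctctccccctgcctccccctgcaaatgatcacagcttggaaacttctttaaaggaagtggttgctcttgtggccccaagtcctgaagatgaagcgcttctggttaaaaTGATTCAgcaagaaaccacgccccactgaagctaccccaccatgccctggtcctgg
Itgax promoter, chr7:128129300-128129599, plus strand: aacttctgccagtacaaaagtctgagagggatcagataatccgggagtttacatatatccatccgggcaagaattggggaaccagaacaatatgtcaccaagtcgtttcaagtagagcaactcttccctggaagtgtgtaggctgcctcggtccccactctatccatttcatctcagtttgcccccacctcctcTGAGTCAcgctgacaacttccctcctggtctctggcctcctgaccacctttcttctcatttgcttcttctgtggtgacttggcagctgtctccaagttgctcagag
Gpnmb promoter, chr6:49036268-49036567, plus strand: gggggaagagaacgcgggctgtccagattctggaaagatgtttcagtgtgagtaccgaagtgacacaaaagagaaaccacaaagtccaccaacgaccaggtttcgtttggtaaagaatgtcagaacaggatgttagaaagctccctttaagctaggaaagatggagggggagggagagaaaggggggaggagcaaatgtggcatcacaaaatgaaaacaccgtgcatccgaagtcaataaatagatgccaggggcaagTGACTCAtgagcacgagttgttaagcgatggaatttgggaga

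Trem2 and its adaptor had different ranges across cell types. Trem2 was highest in microglia-like cells, at 886 to 1463 CPM over the 4 libraries (mean 1085 ± 257, SD, n = 4). It followed in the Arg1/Apoe cluster at 471 to 780 CPM, then in the Ms4a4c cluster (248 to 456) and the Nos2 cluster (209 to 403), whose ranges overlap. The Vcan cluster had only 40.6 to 90.2 CPM of Trem2, conventional dendritic cell-like cells 31.8 to 41.4 and T-like cells 5.01 to 10.5, the level taken here as background. Tyrobp was more even: its range was 2042 to 2463 CPM in microglia-like cells, 2209 to 2945 in the Vcan cluster, 2351 to 2721 in neutrophil-like cells and 2281 to 2946 in plasmacytoid dendritic cell-like cells, all overlapping. Conventional dendritic cell-like cells (847 to 1234 CPM) and NK/ILC1-like cells (828 to 1120) had lower Tyrobp levels, and T-like cells had 24.3 to 43.4 CPM. So the adaptor was found in many classes that had little of this receptor. DAP12 is known to serve other receptors too.

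Of the other surface proteins, Axl was at similar levels in microglia-like cells (108 to 220 CPM) and in the Nos2 (147 to 189), Arg1/Apoe (143 to 170) and Ms4a4c (140 to 164) clusters, whose ranges overlap. In the Vcan cluster it was at 3.07 to 14.25 CPM, around the level of T-like cells (7.33 to 12.3). Itgax was highest in conventional dendritic cell-like cells, at 74.3 to 104 CPM, followed by plasmacytoid dendritic cell-like cells (35.4 to 63.5) and the Nos2 cluster (22.5 to 52.6), which overlap with each other. Microglia-like cells (12.99 to 33.9 CPM) and the Arg1/Apoe cluster (15.5 to 33.6) had lower Itgax levels, overlapping with those of NK/ILC1-like cells (17.5 to 36.9). Conventional dendritic cells, for which CD11c is a standard marker, therefore stood above the other classes in every library, while migratory dendritic cell-like cells had 0 to 15.2 CPM.

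**Figure D1:**
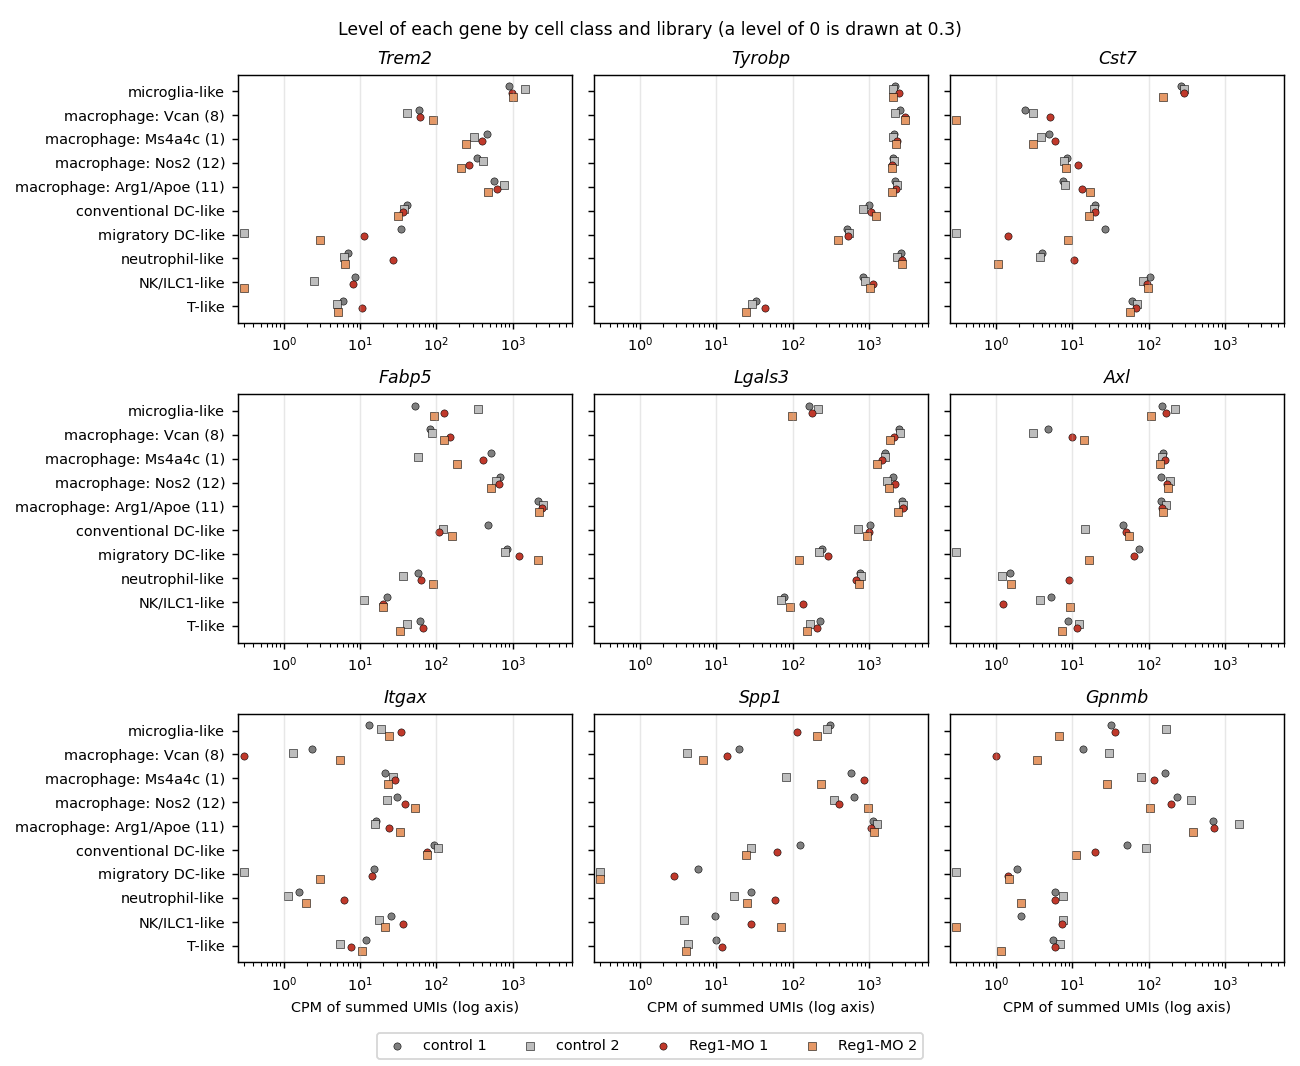
Level of each gene (horizontal log axis, CPM of UMIs summed per class and library; a level of 0 is drawn at 0.3) in 10 cell classes or clusters (rows), with 1 point per library. Trem2 and Cst7 lie furthest right in microglia-like cells, Gpnmb, Spp1, Fabp5 and Lgals3 in the Arg1/Apoe cluster, and Itgax in conventional dendritic cell-like cells.

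Of the lysosomal and lipid genes, Cst7 was on average highest in microglia-like cells, and Gpnmb and Fabp5 in the Arg1/Apoe cluster. Cst7 was at 152 to 294 CPM in microglia-like cells and at 6.76 to 10.75 in macrophage-like cells; progenitor-like cells (76.8 to 171), NK/ILC1-like cells (85.1 to 104) and T-like cells (57.5 to 69.6) lay between them. Gpnmb was at 384 to 1504 CPM in the Arg1/Apoe cluster and 105 to 356 in the Nos2 cluster. In microglia-like cells it was at 6.67 to 169 CPM, overlapping with the Nos2, Ms4a4c (28.2 to 162) and Vcan (1.00 to 30.5) clusters. Fabp5 was at 2154 to 2520 CPM in the Arg1/Apoe cluster, more than 3 times its level in the Nos2 cluster (525 to 683). In microglia-like cells it was at 52.2 to 353 CPM, overlapping with the Ms4a4c (57 to 518) and Vcan (81.7 to 150) clusters. Migratory dendritic cell-like cells also had much Fabp5, at 785 to 2148 CPM, with almost no Gpnmb (0 to 1.90) or Spp1 (0 to 5.71), although 1 library gave only 9 such cells.

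The genes of both secreted proteins were highest in the Arg1/Apoe cluster. Spp1 was at 1067 to 1268 CPM in the Arg1/Apoe cluster and at 115 to 313 in microglia-like cells, and the Nos2 (350 to 987) and Ms4a4c (81.3 to 854) clusters varied widely between libraries. Lgals3 was at 2399 to 2834 CPM in the Arg1/Apoe cluster and 1893 to 2532 in the Vcan cluster. In microglia-like cells it was at only 98.02 to 216 CPM, which overlaps with T-like cells (155 to 232). A microglial Lgals3 level above that of T-like cells was therefore not shown. Single T-like clusters also differed, at 78.0 to 112 CPM in cluster 16 and 229 to 277 in cluster 0. T-like cells thus give no fixed background for Lgals3.

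Over the 24 sums of 6 classes in 4 libraries, the genes whose log2 level followed Trem2 most closely among 6111 compared were Pla2g15, a lysosomal phospholipase (Pearson r = 0.982), Snx24 (0.973), Tbc1d9 (0.973) and F11r (0.962). Tyrobp was followed most closely by Fcer1g (r = 0.993), which encodes another signalling adaptor of the same kind. Cst7 paired with Phgdh (0.951), Itgax with Lpp (0.923), Spp1 with the macrophage marker Ms4a7 (0.941) and Gpnmb with Saa3 (0.924). Axl paired with Sbf2 (0.949), Fabp5 with Plekhm3 (0.943) and Lgals3 with BC005537 (0.964). Among the 9 genes themselves, Trem2 was closest to Axl (r = 0.796) and Gpnmb (0.77), and Fabp5 to Lgals3 (0.82), while Cst7 was most opposed to Lgals3 (-0.647). These points share libraries and depth, and they describe differences between cell classes rather than between mice. The 6 classes were T-like, NK/ILC1-like, macrophage-like, microglia-like, neutrophil-like and progenitor-like cells. No dendritic cell-like class was among them. The Itgax correlations therefore leave out conventional and plasmacytoid dendritic cell-like cells, where Itgax was highest.

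The groups were then compared on UMIs summed per library, with CPM scaled by edgeR's TMM factors, and a gene was called at an adjusted p of 0.05 (edgeR's quasi-likelihood test, Benjamini-Hochberg adjustment over all genes tested). In microglia-like cells 0% of 11851 genes were called, 975 had an unadjusted p of less than 0.05, and DESeq2 called 38, with none of the 9 among them. Of the 9 genes, 2 lay above 0 on the log2 scale and 7 below (median -0.42, against -6.26e-05 over all genes). The osteopontin gene Spp1 had the clearest separation, at 312.5 and 290.8 CPM in control 1 and 2 against 119.7 and 197.3 in Reg1-MO 1 and 2. Both Reg1-MO libraries were below both control libraries, and the log2 fold change was -0.93 ± 0.30 (SE, 2 libraries per group, edgeR adjusted p = 0.599). Itgax was at 12.97 and 18.9 CPM against 35.3 and 23.1, on 53 and 131 UMIs against 297 and 364. Here both Reg1-MO libraries were higher (log2 fold change 0.85 ± 0.31, edgeR adjusted p = 0.599). Groups that do not overlap are common at this size: 21.7% of all genes were higher in both Reg1-MO libraries and 21.8% lower.

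The other 7 genes overlapped between the groups in microglia-like cells. Trem2 was at 885 and 1488 CPM against 1036 and 950 (log2 fold change -0.26 ± 0.33, edgeR adjusted p = 0.792; 0.17 without control 2). Its adaptor gene Tyrobp was at 2177 and 2077 CPM against 2570 and 1978 (0.10 ± 0.27, edgeR adjusted p = 0.914). For both, the spread within a group was as large as the difference between the groups. Gpnmb was at 31.6 and 172 CPM against 38.0 and 6.34 (log2 fold change -2.24 ± 1.07, edgeR adjusted p = 0.6). Control 2 alone was high: without it the log2 fold change was -0.565. Fabp5 was high in control 2 as well, at 52.1 and 359 CPM against 130 and 89.2, and its log2 fold change of -0.92 ± 0.83 became 1.07 without that library. Without control 1 it was -1.72 and passed the test (edgeR adjusted p = 0.0199, with the lone control library assumed to vary like the Reg1-MO group). Cst7 was at 262 and 299 CPM against 305 and 144, so that Reg1-MO 2 alone was low. Axl (151 and 224 CPM against 178 and 102.5) and Lgals3 (165 and 220 against 186 and 93.2) also had their lowest value in Reg1-MO 2. The summed neutrophil markers in these cells were 3227, 1058, 2339 and 2128 CPM and the summed monocyte markers 999.7, 378.8, 406.1 and 265.2; their part in these differences was not tested. Of the 16 macrophage markers all were detected in every library, summing to 23620 and 48730 CPM in the controls against 24590 and 22580, with control 2 again apart.

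**Figure D2:**
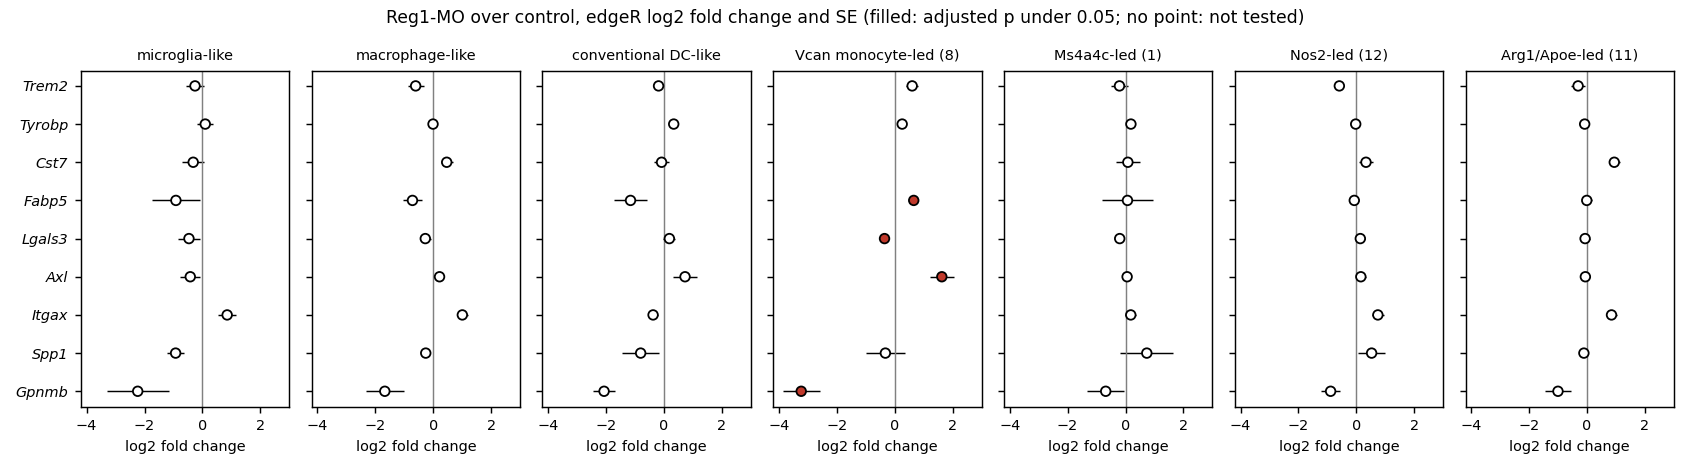
Log2 fold change of each gene, Reg1-MO over control (horizontal axis, point), with its SE (bar), from edgeR in 3 classes and in the 4 macrophage-like clusters; filled points passed an adjusted p of 0.05. The filled points are Fabp5, Lgals3, Axl and Gpnmb in the Vcan cluster, and Gpnmb lies left of 0 in all 7 panels.

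In macrophage-like cells, again 0% of 13304 genes passed the edgeR test, with 2329 below 0.05 before adjustment. DESeq2 called 524 genes (4.56% of those it gave an adjusted p), of which Itgax was the only one of the 9. Of the 9 genes, 5 were lower in both Reg1-MO libraries (Trem2, Spp1, Gpnmb, Fabp5 and Lgals3) and 3 were higher in both (Cst7, Itgax and Axl), where 29.6% of all genes were lower and 28.1% higher; the median over the 9 was -0.26, against -0.01 over all genes. Itgax was at 19.5 and 14.3 CPM against 32.00 and 36.01, with no overlap (log2 fold change 1.00 ± 0.18, edgeR adjusted p = 0.242; DESeq2 1.01, adjusted p = 0.00198). Gpnmb was at 406.5 and 1082 CPM against 342.8 and 123.7. Its groups did not overlap, but control 1 lay near Reg1-MO 1 (log2 fold change -1.67 ± 0.66, edgeR adjusted p = 0.286), and without control 2 the value was -0.80. Without control 1 the Gpnmb difference was -2.21 and passed the test (edgeR adjusted p = 0.0307, with the same assumption), as did Itgax (1.25, adjusted p = 0.00362).

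Trem2 in macrophage-like cells was at 427 and 596 CPM against 410 and 261 (log2 fold change -0.61 ± 0.28, edgeR adjusted p = 0.326). Fabp5 was at 1252 and 1814 CPM against 1175 and 690 (-0.72 ± 0.32, edgeR adjusted p = 0.32). In both genes control 2 was the highest library, Reg1-MO 2 the lowest, and control 1 and Reg1-MO 1 lay close together. Without control 2 the values were -0.35 for Trem2 and -0.43 for Fabp5. Lgals3 (2295 and 2583 CPM against 2277 and 1756) and Spp1 (787 and 912 against 720 and 699) differed less, at -0.27 ± 0.19 and -0.26 ± 0.14. Cst7 was at 6.88 and 6.71 CPM against 11 and 7.61 (0.47 ± 0.21), far below its level in T-like cells. Axl was at 130 and 140 CPM against 165 and 149 (0.22 ± 0.12), and Tyrobp was level (2142 and 2287 against 2232 and 2175; -0.0074 ± 0.141). Summed monocyte markers in these cells were 14210 and 18970 CPM against 7524 and 7968, and summed neutrophil markers 3973 and 3892 against 1190 and 2626; their part in these differences was not tested.

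The mix of the 4 macrophage-like clusters also differed between the libraries. The Arg1/Apoe cluster, which had the highest Trem2, Gpnmb, Spp1 and Fabp5 levels of the 4, made up 38.4% and 59.4% of macrophage-like cells in control 1 and 2 and 28.4% and 16.7% in Reg1-MO 1 and 2. The Vcan cluster made up 17.7% and 27.2% against 3.21% and 10.3%. The Nos2 cluster made up 24.3% and 3.76% against 37.3% and 34.2%, and the Ms4a4c cluster 19.6% and 9.69% against 31.1% and 38.7%. All 4 shares were without overlap between the groups, and an exact permutation test of 2 against 2 libraries cannot give a two-sided p below 0.33. When each library's cluster levels were averaged with the same weights, the log2 ratio of Fabp5 went from -0.78 to -0.02, that of Trem2 from -0.66 to -0.35 and that of Gpnmb from -1.72 to -0.998. That of Spp1 went from -0.29 to 0.16, and that of Itgax from 0.99 to 0.62, while that of Cst7 went further from 0, from 0.39 to 0.58. This averaging was added after seeing the data. The clusters are groups of the same cells by other genes, so the mix and the levels are not independent measurements. The observed ratios weight clusters by UMIs and the averaged ratios by cells. They therefore differ in weighting as well as in mix.

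**Figure D3:**
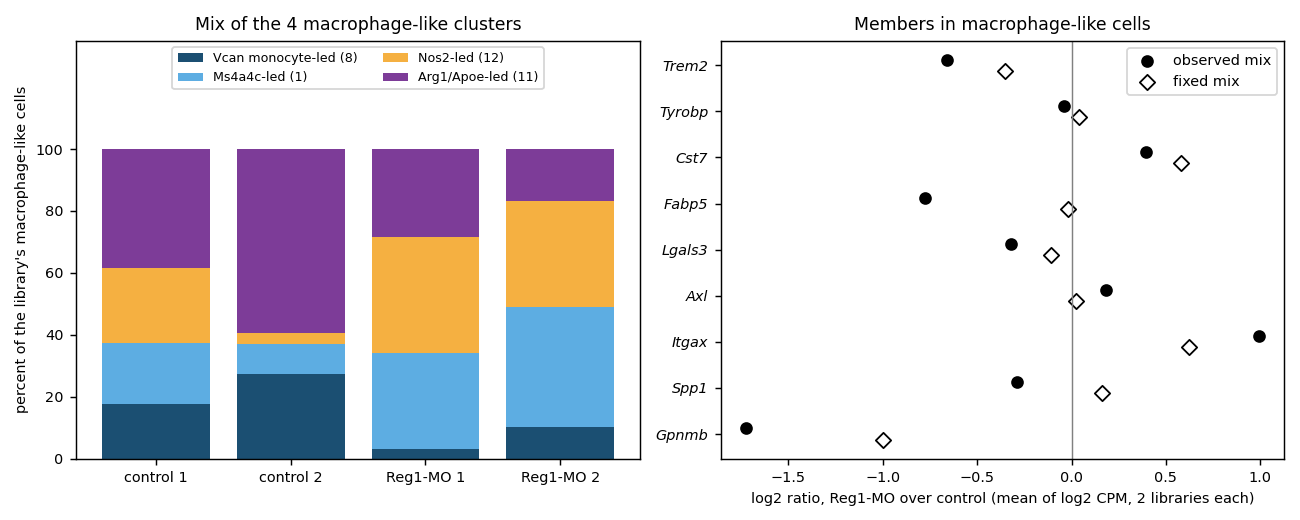
Left, the share of each library's macrophage-like cells (vertical axis, percent) in each of the 4 clusters. Right, the log2 ratio of Reg1-MO over control of each gene with the observed mix (filled) and with the same mix in every library (open); Fabp5 moves from -0.78 to -0.02 and Gpnmb from -1.72 to -0.998.

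Within the Vcan cluster, whose best-matching marker list was that of monocytes, 4 of the 9 genes passed the test. Axl and Fabp5 were higher, and Gpnmb and Lgals3 lower, in the Reg1-MO libraries, out of 7 genes that passed the filter on low counts. In this cluster 679 of 9466 genes (7.17%) were called, 3.61% higher and 3.56% lower, so calls of single genes were common here. Gpnmb was at 14.1 and 31.4 CPM against 0.997 and 3.34, on 59 and 139 UMIs against 1 and 5. Both Reg1-MO counts were under the filter's minimum count of 10, so Gpnmb entered the test only through the control libraries. For such a gene the filter favours a lower level in the Reg1-MO group, and its call has this limit. The ratio of the pooled levels, control over Reg1-MO, was 9.28, with an exact 95% counting interval of 4.19 to 25.6, and the edgeR log2 fold change was -3.23 ± 0.64 (adjusted p = 0.0126). In T-like cells Gpnmb was at 1.14 to 6.80 CPM, so the Reg1-MO libraries were within or just under that background. Axl was at 4.78 and 3.16 CPM against 9.97 and 14.0, on 20 and 14 UMIs against 10 and 21 (log2 fold change 1.62 ± 0.41, edgeR adjusted p = 0.0347). Against T-like cells (7.33 to 12.3 CPM), both control libraries were lower, Reg1-MO 1 was within their range and Reg1-MO 2 was above it.

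Fabp5 and Lgals3 rest on more UMIs in the Vcan cluster. Fabp5 was at 82.7 and 88.7 CPM against 149.5 and 122.8 (log2 fold change 0.65 ± 0.14, edgeR adjusted p = 0.0159). Lgals3 was at 2488 and 2603 CPM against 2121 and 1862 (-0.35 ± 0.09, edgeR adjusted p = 0.0382). In each, the groups did not overlap and the libraries of a group lay close together. Trem2 was at 59.3 and 41.8 CPM against 60.8 and 88.8 (0.60 ± 0.21, edgeR adjusted p = 0.115) and Tyrobp at 2610 and 2270 against 2930 and 2894 (0.26 ± 0.09, edgeR adjusted p = 0.115); neither passed. For Trem2 this turned on 1 library: without Reg1-MO 1 the difference was 0.82 and passed (edgeR adjusted p = 0.00691, with the lone Reg1-MO library assumed to vary like the controls), and without Reg1-MO 2 it was 0.27. Of all genes tested in this cluster, 26.6% were higher and 27.4% lower without overlap. Spp1 overlapped, at 20.3 and 4.29 CPM against 14.0 and 6.67. Cst7 and Itgax were too low for the test. The Reg1-MO libraries gave only 89 and 121 cells of this cluster, against 363 and 390. Its summed monocyte markers were 38700 and 44240 CPM in the controls against 18910 and 16020, and its summed neutrophil markers 4381 and 6095 against 1121 and 1162, while all 10 monocyte markers were detected in each library; the part of these shifts in the calls was not tested. DESeq2, which called 3.78% of genes here, kept only Gpnmb of the 4 (log2 fold change -3.28, DESeq2 adjusted p = 0.00282). Without control 2 none of the 4 passed (Gpnmb -2.55, edgeR adjusted p = 0.114). Without control 1 only Gpnmb did, and without Reg1-MO 2 Axl (edgeR adjusted p = 0.285) and Lgals3 (edgeR adjusted p = 0.241) did not; the direction of the 4 was the same in each of these edgeR fits.

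**Figure D4:**
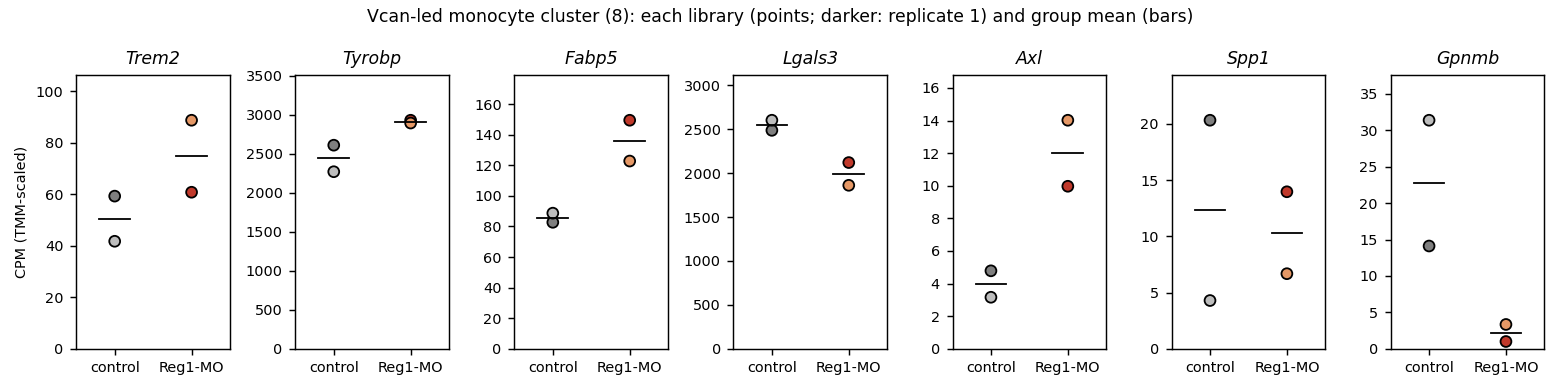
Level in the Vcan cluster (vertical axis, TMM-scaled CPM, each panel from 0) of the 7 genes that passed the filter on low counts, with 1 point per library and a bar at the mean of each group of 2. In Fabp5, Lgals3, Axl and Gpnmb, which passed the test, and in Trem2 and Tyrobp, which did not, the groups do not overlap.

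In the other 3 macrophage-like clusters no gene of the 9 passed (0% of 10687 genes called in the Ms4a4c cluster, 0% of 11542 in the Nos2 cluster and 0.00829% of 12057 in the Arg1/Apoe cluster). By edgeR 1413, 1278 and 1216 genes were below 0.05 before adjustment. DESeq2 called 98, 146 and 108 genes, with none of the 9 among them. Itgax was higher in both Reg1-MO libraries in the Arg1/Apoe cluster (15.6 and 15.9 CPM against 24.2 and 33.4; log2 fold change 0.84 ± 0.19, edgeR adjusted p = 0.412). The same held in the Nos2 cluster (30.1 and 21.8 CPM against 40.2 and 53.7; 0.74 ± 0.22, edgeR adjusted p = 0.369), but in the Ms4a4c cluster Itgax overlapped (21.1 and 26.9 against 29.1 and 23.6). Cst7 was higher in both Reg1-MO libraries in the Arg1/Apoe cluster, at 7.45 and 8.10 CPM against 13.3 and 17.1 (0.94 ± 0.19, edgeR adjusted p = 0.412). Trem2 was lower in both in the Nos2 cluster, at 340.1 and 391.7 CPM against 272 and 213 (-0.59 ± 0.18, edgeR adjusted p = 0.376). Gpnmb was at 682.9 and 1537 CPM against 719.8 and 381.9 in the Arg1/Apoe cluster, where control 2 alone was high (-1.01 ± 0.46; -0.31 without it), and at 230 and 346 against 199 and 107 in the Nos2 cluster (-0.89 ± 0.33; -0.57 without control 2). Without control 1, Gpnmb (-1.47, edgeR adjusted p = 0.00327), Itgax (0.81, adjusted p = 0.0318) and Cst7 (0.86, adjusted p = 0.0337) passed in the Arg1/Apoe cluster, with the lone control library assumed to vary like the Reg1-MO group. Groups without overlap made up 22.1% of genes for higher and 23.2% for lower in the Arg1/Apoe cluster, 25.5% and 24.4% in the Nos2 cluster, and 25.1% and 24.9% in the Ms4a4c cluster. Fabp5 in the Arg1/Apoe cluster was at 2110 and 2576 CPM against 2474 and 2173, a log2 fold change of -0.01 ± 0.18. In the Ms4a4c cluster, Spp1 (579 and 81.2 CPM against 871 and 238) and Fabp5 (509 and 56.9 against 413 and 187) differed more between libraries of a group than between the groups. Control 2 had only 54 cells in the Nos2 cluster. Summed neutrophil markers in the Nos2 cluster were 8327 and 28650 CPM in the controls against 1683 and 4642. They were at 1718 and 2122 CPM against 610.5 and 490 in the Arg1/Apoe cluster, and at 1805 and 3180 against 1037 and 1640 in the Ms4a4c cluster. Summed monocyte markers in the Arg1/Apoe cluster were 10870 and 13940 CPM against 5008 and 4105. The part of these marker shifts in the differences was not tested.

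Of conventional dendritic cell-like cells, control 2 gave only 48, fewer than the other libraries. Of 9751 genes, 0% passed the edgeR test, 1324 were below 0.05 before adjustment, and DESeq2 called 0.728%. Gpnmb was at 52.0 and 90.5 CPM against 20.5 and 11.1, on 104 and 99 UMIs against 130 and 30. Both Reg1-MO libraries were lower (log2 fold change -2.07 ± 0.37, edgeR adjusted p = 0.217), and DESeq2 called Gpnmb alone of the 9 (-2.12, adjusted p = 0.00198). In edgeR it passed without control 1 (-2.39, adjusted p = 0.00304) and without control 2 (-1.63, adjusted p = 0.0237), with the lone control library assumed to vary like the Reg1-MO group. It did not pass without Reg1-MO 1 (-2.65, edgeR adjusted p = 0.1), without Reg1-MO 2 (-1.76, adjusted p = 0.376) or with the replicate number as a block (-2.08, adjusted p = 0.234). At 3000 UMIs per cell, Gpnmb was found in 3% and 2.08% of these cells against 1.36% and 1.33%, close to the 0.37% to 2.12% of T-like cells, so the level rests on few cells. Itgax was at 93.9 and 103.3 CPM against 76.3 and 74.9, lower in both Reg1-MO libraries (-0.38 ± 0.17, edgeR adjusted p = 0.387). Tyrobp (1020 and 837 CPM against 1101 and 1245) and Axl (45.5 and 14.6 against 51.7 and 55.0) were higher in both, and Trem2 (41.5 and 37.5 against 37.1 and 32.1) was lower in both by less than 1 standard error. The Axl difference turned on control 2, which had 16 UMIs: it was 0.23 without that library and 1.90 without control 1, where it passed (edgeR adjusted p = 0.00592, with the same assumption). Groups without overlap made up 24.2% of all genes for higher and 25.6% for lower. Spp1 (124 and 28.3 CPM against 63.2 and 25.1) and Fabp5 (478 and 122 against 111 and 162) were highest in control 1. Without it their log2 fold changes were 0.75 and 0.20, and without control 2 they were -1.41 and -1.82. At 3000 UMIs per cell, a single cell held 32 of the 46 Fabp5 UMIs of control 1, and another 13 of 15 in control 2. Cst7 and Lgals3 overlapped. Summed neutrophil markers in these cells were 5126 and 11390 CPM against 441 and 819; their part in these differences was not tested.

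Cells with a UMI of each gene were also counted, after thinning each cell to 3000 UMIs. Nearly all microglia-like cells had a Trem2 UMI (90%, 96.1%, 92.5% and 90.5%), against 1.31% to 2.47% of T-like cells. Before thinning the median depth was 15265 UMIs in cluster 20, which holds most microglia-like cells, and 6801 to 7172 UMIs in T-like cells of the 4 libraries. Spp1 was found in 23.7% and 19.5% of microglia-like cells of the controls and in 9.09% and 9.004% of those of the Reg1-MO libraries. The difference of -12.6 percentage points had the smallest p that 2 against 2 libraries allow (exact permutation test, two-sided, p = 0.333). Unthinned, the Spp1 shares were 45.0% and 31.2% against 32.3% and 21.2%, and overlapped. In macrophage-like cells Gpnmb was found in 31.3% and 54.7% against 27.7% and 12.3% of cells, Trem2 in 52.0% and 60.3% against 49.9% and 41.1%, and Itgax in 5.10% and 3.69% against 7.68% and 8.96%. T-like cells had a Gpnmb UMI in 0.37% to 2.12% and an Itgax UMI in 0.81% to 2.90% of cells. Cst7 was in 44.7% and 44.1% of microglia-like cells of the controls and in 48.3% and 21.5% of those of Reg1-MO 1 and 2. In microglia-like cells, shares for Lgals3 (8.88% to 25.4%) were below those of T-like cells (26.5% to 36.2%), and those for Fabp5 were above T-like cells (6.85% to 13.2%) in control 2 alone (35.1%). In macrophage-like cells, Cst7 shares (1.77% to 2.58%) were below those of T-like cells (12.5% to 17.5%). In conventional dendritic cell-like cells (median 15445 UMIs before thinning), Fabp5 was found in 7% and 6.25% of cells of the controls and in 12.3% and 14.7% of those of the Reg1-MO libraries. This share was higher in both Reg1-MO libraries, by 6.84 percentage points (exact permutation test, two-sided, p = 0.333), whereas the Fabp5 fold change on summed UMIs was -1.16 ± 0.56 (log2). Only the share in Reg1-MO 2 lay above the range of T-like cells. At this depth the cell with the most Fabp5 UMIs held 32 of 46 in control 1 and 13 of 15 in control 2. In Reg1-MO 1 and 2 it held 15 of 105 and 11 of 54, so the summed fold change rests on few control cells. Unthinned, the shares were 18.45% and 18.75% against 29.3% and 30.3%. Itgax was found in 23% and 35.4% of these cells against 20.7% and 16.7%, lower in both Reg1-MO libraries, as its CPM was. Cells with fewer than 3000 UMIs were left out: 8 and 19 microglia-like cells of the controls and 11 and 16 of the Reg1-MO libraries, 55 and 26 against 63 and 22 macrophage-like cells, and 3 and 0 against 5 and 2 conventional dendritic cell-like cells.

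**Figure D5:**
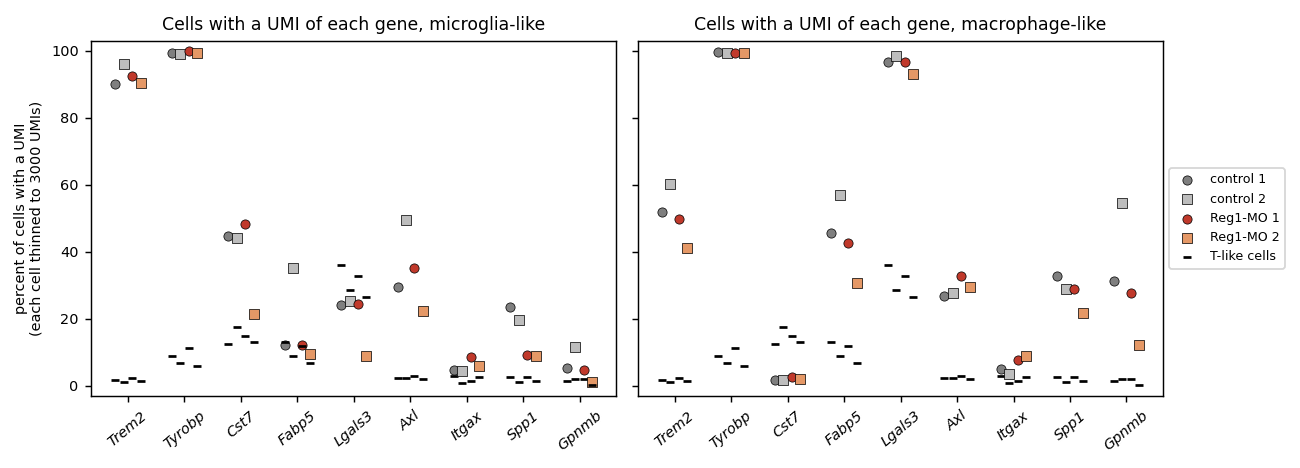
Percent of cells with at least 1 UMI of each gene (vertical axis, cells thinned to 3000 UMIs) in microglia-like (left) and macrophage-like cells (right), with 1 point per library and dashes for T-like cells of the same libraries. Spp1 in microglia-like cells is at 23.7% and 19.5% in the controls and at 9.09% and 9.004% in the Reg1-MO libraries.

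The genes also differed in how they were spread among cells of one kind. In the Arg1/Apoe cluster at 3000 UMIs per cell, the top 10% of cells held 63.2% to 76.7% of all Spp1 UMIs and the median cell had 0. The top 10% held 33.9% to 52.4% of Gpnmb UMIs, 33.6% to 40.1% of Fabp5 UMIs, 25.9% to 32.2% of Trem2 UMIs and 18.8% to 19.6% of Tyrobp UMIs. Osteopontin transcripts thus came from few cells of the cluster in every library, whereas the median cell had 6 Tyrobp UMIs. In microglia-like cells the top 10% held 78.6% to 100% of Spp1 UMIs and 21.8% to 24.7% of Trem2 UMIs. The 100% came from the Reg1-MO libraries, where a mean of 9.05% of cells had any Spp1 UMI, so it was fixed by detection. For a gene found in few cells at this depth, such a share says little about spread.

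Differences of the Reg1-MO effect between classes were tested with an interaction term and library as a block. Between microglia-like and macrophage-like cells 0% of 13577 genes passed in edgeR, 1464 were below 0.05 before adjustment, and Cst7 had the smallest unadjusted p of the 9 (-0.80 ± 0.25, edgeR adjusted p = 0.414). Itgax, higher in both Reg1-MO libraries in macrophage-like cells and lower in both in conventional dendritic cell-like cells, differed by 1.33 ± 0.21 between these classes (edgeR adjusted p = 0.156; 0.0623% of genes called). Between microglia-like and conventional dendritic cell-like cells it differed by 1.23 ± 0.30 (edgeR adjusted p = 0.498; 0% called, 1106 genes below 0.05 before adjustment). None of the 9 passed in the comparisons of the Vcan cluster with the Ms4a4c (0.0374% of genes called), Arg1/Apoe (0.0186%) and Nos2 (0.0371%) clusters, nor between the Ms4a4c and Nos2 clusters (0% called, 593 genes below 0.05 before adjustment). There, the difference of Gpnmb between the Vcan and Arg1/Apoe clusters was -2.15 ± 0.49 (edgeR adjusted p = 0.122) and that of Fabp5 0.65 ± 0.17 (edgeR adjusted p = 0.168). An effect particular to the Vcan cluster was therefore not shown. These comparisons other than the one between microglia-like and macrophage-like cells were chosen after seeing the data.

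Genes that work with these 9 were read from 13 lists of related pathways, and outside the Vcan cluster none of their members passed the test. For each list described here, up to 2 of its most abundant genes in the class are named. In microglia-like cells, all 12 homeostatic microglia genes lay above 0 (median log2 fold change 0.59, where 50% of all genes lay above 0), 9 of them without overlap between groups, where 21.7% of all genes were higher without overlap. Olfml3 was at 830 and 415 CPM against 1068 and 1339. This list shares genes with the microglial markers that named the cells.

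Lists tied to the lysosome, to lipids and to the receptor's signal mostly lay below 0 in microglia-like cells. The 8 tested MiT/TFE factors and lysosomal targets all lay below 0 (median -0.40), with the cathepsin gene Ctsd at 6042 and 9118 CPM against 7349 and 5696 and the lysosomal membrane protein gene Lamp1 at 964 and 1462 against 939 and 785. Of 8 fatty acid binding and lipid droplet genes, 6 lay below 0 (median -0.55): the lipid droplet coat gene Plin2 was at 151.5 and 237.9 CPM against 113.3 and 86.5, and Soat1, which esterifies cholesterol, at 122.1 and 166.9 against 93.6 and 69.2. Of the 14 genes of TREM2 and DAP12 signalling, 11 lay below 0 (median -0.21), such as the kinase gene Lyn (1248 and 1204 CPM against 1076 and 1034) and Inpp5d, whose phosphatase restrains the pathway (1013 and 1274 against 816 and 779). Of 25 disease-associated microglia genes outside the 9, 18 lay below 0 (median -0.20). Among these Apoe, which encodes a TREM2 ligand, was at 4736 and 29980 CPM against 3951 and 1598, with control 2 alone far above the rest, and Fth1, a ferritin subunit, at 9189 and 9749 against 9018 and 7613. The other lists were divided or small. In them, 5 of 10 genes listed as receptors that pair with DAP12 lay above 0. So did 3 of 4 TREM2 ligands and sheddases, 5 of 10 Dectin-1 signalling genes and 1 of 3 TAM receptors and ligands. Also above 0 were 4 of 8 osteopontin receptors and 4 of 5 genes of the integrin list. Of 6 cystatin F targets and related cystatins 4 lay above 0, and of 4 galectins 1.

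In macrophage-like cells, 16 of 25 disease-associated microglia genes outside the 9 lay below 0 (median -0.43), 11 of them without overlap, while 48.5% of all genes lay above 0 and 29.6% were lower without overlap. The most abundant of them overlapped, with Fth1 at 28180 and 24060 CPM against 32760 and 27510 and Lyz2, the lysozyme gene, at 14460 and 27810 against 14790 and 16500. The 3 tested TAM receptor and ligand genes were all lower in both Reg1-MO libraries (median -0.69), as were 29.6% of all genes: Mertk, a receptor for apoptotic cells related to Axl, was at 232.5 and 313 CPM against 198.7 and 139, and Pros1, one of its ligands, at 15.8 and 22.6 against 15.3 and 15.1. Of 10 MiT/TFE factors and lysosomal targets, 8 lay below 0 (median -0.28), with Ctsd at 2662 and 4336 CPM against 2147 and 1321 and Lamp1 at 1181 and 1472 against 1178 and 1037. Of 9 fatty acid binding and lipid droplet genes, 7 lay below 0 (median -0.36), with Plin2 at 522 and 684 CPM against 402 and 353 and Soat1 at 202.5 and 262 against 197.3 and 182.4.

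The lists of receptors and integrins lay the other way in macrophage-like cells. Of 11 genes in the list of receptors that pair with DAP12, 9 lay above 0 (median 0.25), while the abundant Cd300c2 overlapped. Among the 9 was Clec4e, a receptor for glycolipids (264 and 148 CPM against 336 and 438). Clec4e is known to use the adaptor encoded by Fcer1g, so the list is not of DAP12 receptors alone. Of 10 genes in the Dectin-1 signalling list, 8 lay above 0 (median 0.47), with Malt1 at 503 and 359 CPM against 683 and 796.5. Fcer1g, in that list although its adaptor serves other receptors, was at 3112 and 2480 CPM against 3371 and 2964. Of 8 osteopontin receptor genes 6 lay above 0 (median 0.37), although the 2 most abundant, Cd44 and Itgb5, overlapped. Of 4 tested genes of the integrin list 3 lay above 0 (median 0.35). Itgb2, the partner chain of CD11c, was at 381 and 290 CPM against 452 and 387, and Itgam overlapped. Above 0 were also 9 of 14 genes of TREM2 and DAP12 signalling, 2 of 4 TREM2 ligands and sheddases, 3 of 6 cystatin F targets and related cystatins, 2 of 5 galectins and 7 of 11 homeostatic microglia genes.

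In the Vcan cluster, where 7.17% of all genes were called, each list but those of TAM receptors and osteopontin receptors held called genes. Cystatin F targets and related cystatins had 4 of 6 called, with Ctsc, the gene of cathepsin C, which cystatin F can inhibit, at 878 and 869 CPM against 1186 and 1270 (log2 fold change 0.49 ± 0.09, edgeR adjusted p = 0.00892), and with Lgmn and Cst3 higher and Ctsl lower. Lgals3bp, which encodes a binding partner of galectin-3, was at 18.4 and 15.6 CPM against 43.9 and 62.8 (1.68 ± 0.21, edgeR adjusted p = 0.00148), and Lgals1 was higher too. Of TREM2 and DAP12 signalling 1 gene was higher (Lat2, an adaptor, 29.2 and 30.0 CPM against 60.8 and 64.8) and 2 lower (Vav3 and Cbl). Of TREM2 ligands and sheddases 2 were lower, Apoe (1794 and 2025 CPM against 1494 and 848) and Adam10, a protease that sheds TREM2 (116 and 118 against 69.8 and 74.1). Of disease-associated microglia genes outside the 9, 3 of 22 were higher (Cd68, H2-D1 and B2m) and 3 lower, Ctsl and Apoe among them. Cd300c2 and Cd300ld were higher in the list of receptors that pair with DAP12, and Rel, Nfkb1 and Malt1 among Dectin-1 signalling genes. In the integrin list the 1 called gene was Icam1, which was higher. It encodes a ligand of integrins, so no integrin gene of that list was called. Of 6 tested homeostatic microglia genes 3 were higher, Cx3cr1 and Olfml3 among them. Summed microglial markers in this cluster were only 190.1 and 181.4 CPM against 283.6 and 327.6, while microglia-like cells had 7759 CPM or more. Microglia-like cells made up 2.62% and 7.97% of the control libraries' cells and 4.90% and 17.1% of those of the Reg1-MO libraries. A part of stray microglial RNA in these calls was not tested. Tfec was the MiT/TFE gene that was called (126 and 158 CPM against 88.7 and 22.03), and Acsl1 the lipid gene (48.8 and 72.9 against 25.9 and 36.1), both lower.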

How the data were processed

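Droplet single-cell RNA sequencing gave 1 table of UMI counts per library. The authors deposited unnormalized counts of genes by cell barcodes and used Cell Ranger, version 5.0.1 per the file headers. The submitters' processing notes name mm10 and Seurat 4.0. Here, barcodes under 500 UMIs or 200 genes, or over 10% mitochondrial UMIs, were dropped, leaving 5170 to 8715 cells per library, and the cells with the highest Scrublet scores were removed as doublets, at 0.8% per 1000 barcodes. Cells were scaled to 10000 UMIs and clustered with scanpy 1.11.5 (3000 variable genes without the 10 listed genes, 40 principal components, 15 neighbours, Leiden resolution 1), and clusters were named from marker lists, so shares and levels depend on rebuilt names. UMIs were summed per class and library and tested with edgeR 4.0.16 (TMM, filterByExpr with a minimum count of 10), with DESeq2 1.42.0 as an alternative, in R 4.3.3. Library sizes varied with cell number: median UMIs per cell were 9458 to 11548. The scripts were tested on simulated data. There edgeR recovered 10% of 2-fold changes in microglia-like, 48% in macrophage-like and 33% in conventional dendritic cell-like cells. For 4-fold changes the values were 83.5%, 92% and 92.5%. A class without called genes can thus still hold 2-fold changes. Genes named beside the 10 were the 2 most abundant of each list, the called ones in the Vcan cluster, and those with the highest correlation (mean of at least 20 CPM). Some genes that these rules select are not reported here. The 10 genes, the lists and the class comparisons were chosen with earlier results of these data known. Counting intervals cover counting error only. The authors' own cell annotation was not used here.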

Additional observations from a re-analysis of the deposited data

Results flagged for a closer look

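The effect of Reg1-MO on Itgax had opposite signs in different classes, with every Reg1-MO library above every control library in one class and below them in the other. It was 1.33 (log2) higher in macrophage-like than in conventional dendritic cell-like cells, from effects of 1.00 and -0.38 (edgeR adjusted p = 0.156). Between microglia-like and conventional dendritic cell-like cells the difference was 1.23, from effects of 0.85 and -0.38 (edgeR adjusted p = 0.498).

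Trem2 was higher in both Reg1-MO libraries in the Vcan cluster (0.60) and lower in both in the Nos2 cluster (-0.59), a difference of 1.19 (edgeR adjusted p = 0.225). For its adaptor gene Tyrobp the difference between the same clusters was 0.28, from 0.26 and -0.02 (edgeR adjusted p = 0.519), and between the Ms4a4c and Nos2 clusters 0.21, from 0.18 and -0.02 (edgeR adjusted p = 0.932). None of these 5 differences passed the adjusted threshold. With 2 libraries per group, no library could be tested as an outlier. In the Vcan, Ms4a4c and Nos2 clusters, summed neutrophil markers were lower in both Reg1-MO libraries. Their part in these differences was not tested.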

How the results depend on the processing

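Of 685 alternative values of the 9 genes' fold changes, 589 kept their direction and their side of the threshold, 50 changed sign, 32 were newly called and 14 lost their call; of 120 alternative differences in shares of cells, 115 kept theirs and 5 changed sign. The cause was not tested where none is given.

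Genes called in the 7 classes and clusters numbered as follows under other settings, in the order microglia-like, macrophage-like, conventional dendritic cell-like, Ms4a4c, Vcan, Arg1/Apoe and Nos2. DESeq2 called 38, 524, 71, 98, 302, 108 and 146 genes. Without a filter on low counts 574, 2006, 753, 767, 1154, 795 and 675 were called, and 649 in the difference between microglia-like and macrophage-like cells; of the 9 genes then 3, 4, 4, 2, 5, 3 and 2. DESeq2 called 1 of the 9 in each of the macrophage-like, conventional dendritic cell-like and Vcan groups. The replicate number as a block (2 pairs, r = 0.228, 0.037 and -0.062 in the 3 classes, no shared batch in the labels) gave 11 genes in conventional dendritic cell-like cells and 2, 381, 3 and 78 in the 4 clusters; of the 9 genes 2 passed in the Vcan cluster, without Axl (edgeR adjusted p = 0.0796) and Lgals3 (0.0743).

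Leaving out 1 library at a time gave 0 to 817 genes in microglia-like, 0 to 2159 in macrophage-like and 8 to 948 in conventional dendritic cell-like cells, 0 to 735 in the Ms4a4c, 88 to 1003 in the Vcan, 0 to 1259 in the Arg1/Apoe and 0 to 648 in the Nos2 cluster, and 0 to 974 in the difference; the highest count came without control 1, or without Reg1-MO 1 in the Vcan cluster. Of the 9 genes, 0 to 1, 0 to 2 and 0 to 2 passed in the 3 classes, 0 to 5 in the Vcan and 0 to 3 in the Arg1/Apoe cluster.

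Log2 fold changes that changed sign when 1 library was left out had these ranges over all settings, not only over fits with a library left out. In microglia-like cells they were Trem2 -0.586 to 0.167, Tyrobp -0.094 to 0.276, Cst7 -0.948 to 0.125 and Fabp5 -1.719 to 1.067, and in macrophage-like cells Tyrobp -0.051 to 0.04. In conventional dendritic cell-like cells they were Cst7 -0.235 to 0.04, Fabp5 -1.817 to 0.196, Lgals3 -0.067 to 0.542 and Spp1 -1.635 to 0.748. In the Ms4a4c cluster they were Axl -0.079 to 0.175, Cst7 -0.557 to 0.448, Fabp5 -0.757 to 2.41, Gpnmb -2.085 to 0.0043, Itgax -0.0098 to 0.337, Spp1 -0.484 to 2.782 and Trem2 -0.611 to 0.105. In the Arg1/Apoe cluster they were Axl -0.209 to 0.101, Fabp5 -0.147 to 0.135, Lgals3 -0.212 to 0.056 and Tyrobp -0.175 to 0.0044. In the Nos2 cluster they were Axl -0.021 to 0.315, Fabp5 -0.238 to 0.087, Lgals3 -0.0041 to 0.286 and Spp1 -0.25 to 1.054, and in the Vcan cluster Spp1 -1.064 to 1.188. The differences between microglia-like and macrophage-like cells were Fabp5 -0.692 to 1.544, Gpnmb -1.137 to 0.032, Itgax -0.618 to 0.361, Lgals3 -0.558 to 0.072 and Tyrobp -0.078 to 0.273. The differences in shares, in percentage points, were Cst7 -22.92 to 3.91 and Trem2 -4.56 to 1.49 in microglia-like and Tyrobp -0.29 to 0.002 in macrophage-like cells.

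Other changes of sign were few. In conventional dendritic cell-like cells, Spp1 was 0.404 and Trem2 0.479 with at most 5% mitochondrial UMIs, and 0.313 and 0.553 with the 10 genes among the clustering genes. These cells formed no class of their own at Leiden resolution 0.5 or without doublet removal. In macrophage-like cells Tyrobp was 0.00022 by DESeq2, 0.0002 with RLE size factors and 0.04 with the same mix of clusters, where Spp1 was 0.161. In microglia-like cells Gpnmb was 0.092 at Leiden resolution 2 and Tyrobp -0.033 with the mixed clusters added. Tyrobp in the Nos2 cluster was 0.0067 without a filter. The share difference of Trem2 in microglia-like cells was 0.044 points without thinning, and that of Tyrobp -0.061 at 5000 UMIs. The mixed clusters, cluster 20 on its own, the same mix of clusters and the further comparisons of classes were chosen after seeing the data.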

Other observations

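The 1968 cells of the mixed clusters, which belong to no class, lay between microglia-like and macrophage-like cells in Trem2 and Cst7. Trem2 was at 600 to 960 CPM over the 4 libraries and Cst7 at 88.8 to 157. Gpnmb was at 329.5, 758.7, 273.6 and 119.5 CPM in control 1, control 2, Reg1-MO 1 and Reg1-MO 2, and Itgax at 17.6, 18.6, 35.5 and 32.5.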
